A study of Mus musculus with 43 samples.

Results

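Trp53, Cdkn2a, Cdkn2b and 7 established p53 target genes (Cdkn1a, Mdm2, Ccng1, Bax, Phlda3, Zmat3 and Eda2r) were followed through every library of a mouse pancreatic cancer cell line. These 10 genes were picked by symbol from the 12889 genes held by both expression tables of the study, and they were chosen by how their levels differ between its 2 sets of bulk libraries. That difference is therefore given as a description, without a test. The line, PD798, was grown from the pancreatic ductal adenocarcinoma of a genetically engineered mouse, in which Pdx1-cre acts in the pancreas on 1 conditional p53 allele (p53 L/+) and a Rosa YFP/YFP lineage tag, so all 43 libraries share these alleles and come from 1 line. How much of the second p53 copy the line keeps was not analysed here.

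The first experiment compared 4 ways of handling the line in bulk, with 3 libraries each. Pre-FACS cells were set aside before sorting, and Mock cells stood in buffer on the bench. Pre-enriched cells were labelled with magnetic particles and treated with red cell lysis buffer. They then passed through a magnetic and acoustic pre-enrichment device before a BD Influx cell sorter. The paper describes FACS-only cells as the same sample, run on the sorter without the device, so particles and lysis do not set these 2 conditions apart. The second experiment, here the input series, held 11 single cells, 12 pools of 10 cells and 6 pools of 100 cells, sorted through the same device after the line had been added to mouse blood, and 2 libraries of bulk RNA of the line. The labels name mouse blood for every library and the pre-enrichment route for bulk RNA too, where the methods describe blood only for the sorted input cells. The values are TPM, a transcript abundance scaled for gene length and library size, and fits used log2(TPM + 1). No source names separate cultures, so p-values measure only the spread between these libraries, which may be technical.

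p53, encoded by Trp53, is a transcription factor that is held at a low level by Mdm2, a ubiquitin ligase that is itself a p53 target. When p53 is active it induces Cdkn1a (the CDK inhibitor p21), Ccng1 (cyclin G1), Bax (a pore-forming promoter of apoptosis), Phlda3 (an inhibitor of Akt signalling), Zmat3 (an RNA-binding zinc finger protein) and Eda2r (a receptor of the TNF receptor family). Cdkn2a encodes the CDK inhibitor p16Ink4a and, in another reading frame, p19Arf, which restrains Mdm2. Its neighbour Cdkn2b encodes the CDK inhibitor p15Ink4b. In pancreatic ductal adenocarcinoma, loss of p53 and loss of the Cdkn2a locus are both common.

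In the mm10 (GRCm38) annotation Trp53 lies on the plus strand at chr11:69580359-69591873, and its neighbour Wrap53 starts on the other strand 103 bases away. Cdkn2a (chr4:89274471-89294653) and Cdkn2b (chr4:89306299-89311039) lie on the minus strand with 11645 bases between them. The 2 protein products of Cdkn2a, p16Ink4a and p19Arf, cannot be told apart in its gene-level value. Exons of Cdkn1a overlap those of AC167363.2 and exons of Bax those of Gm45808, and because the library kit does not keep the strand, reads of such partners cannot be separated. Trp53 has an annotated processed copy, Trp53-ps, so its reads could be split.

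Promoter stretches are shown for the genes whose windows hold letters that p53 recognises, since 7 of the 10 genes are its targets. A p53 site is built of half-sites of 10 bases. Promoter windows of 300 bases (250 before to 50 after the start, RefSeq, GRCm38.p6) were matched by symbol for 9 of the 10 genes, in 11 windows. Searched by the consensus of the p53 half-site, which reads the same on both strands, 5 of these 11 windows held a match, against 8.36% of all 32851 windows. The Cdkn1a window held 2 half-sites with 12 bases between them. Such a pair, with a spacer of up to 13 bases, occurred in 0.0731% of all windows. The windows of Phlda3, Cdkn2a, Cdkn2b and Eda2r, and another Cdkn1a window, held no such letters. In the stretches below the half-sites are in capitals, and each stretch is written on the strand of its gene. Only full matches are marked. The 10 bases directly after the second Cdkn1a half-site differ from the consensus only at their first base and are in lower case. Which of these bases p53 binds was not tested.
Cdkn1a (chr17:29090846-29090997, plus strand): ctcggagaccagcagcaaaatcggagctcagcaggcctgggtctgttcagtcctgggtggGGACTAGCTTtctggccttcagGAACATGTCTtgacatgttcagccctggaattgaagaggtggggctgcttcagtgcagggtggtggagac
Mdm2 (chr10:117710895-117710984, minus strand): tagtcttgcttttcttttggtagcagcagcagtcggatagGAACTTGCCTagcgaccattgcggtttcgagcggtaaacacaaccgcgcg
Ccng1 (chr11:40755422-40755511, minus strand): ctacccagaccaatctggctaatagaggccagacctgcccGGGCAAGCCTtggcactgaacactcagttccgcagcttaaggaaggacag
Bax (chr7:45467050-45467139, minus strand): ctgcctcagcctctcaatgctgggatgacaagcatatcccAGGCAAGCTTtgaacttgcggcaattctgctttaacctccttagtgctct
Trp53 (chr11:69580244-69580333, plus strand): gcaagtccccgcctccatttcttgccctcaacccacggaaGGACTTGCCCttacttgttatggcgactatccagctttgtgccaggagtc

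Some libraries of the input series went against their labels or stood apart. The libraries labelled single cell 6 and single cell 9 listed 11438 and 11223 genes at 1 TPM or more, whereas the other 9 single cells listed 3919 to 8598. Across genes, on the log2(TPM + 1) scale, the library labelled single cell 6 correlated at r = 0.995 with the library labelled 10-cell pool 5, and the best match of the other 9 single cells reached 0.667 to 0.828. The libraries labelled 10-cell pool 5 and 10-cell pool 12 correlated with 100-cell pools 1 to 3 at a mean r of 0.99 and 0.992, and the best match of the other 10 pools of 10 cells reached 0.902 to 0.955. The 100-cell pools fell apart into pools 1 to 3, which correlated with each other at up to 0.993, and pools 4 to 6, whose mean r with pools 1 to 3 was 0.878 to 0.897. Values are therefore given with and without these libraries where a result rests on them. Bulk RNA listed 11889 and 11893 genes at 1 TPM or more and the processing libraries 11733 to 11867. Read depth is unknown.

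All 7 epithelial markers were listed in both bulk sets, with Krt18, a keratin of simple epithelia, at 8377 to 9896 TPM in the processing libraries and at 8779.7 and 8889.7 TPM in bulk RNA. Epcam and Cldn7, an adhesion molecule and a claudin of epithelia, were far lower in the processing libraries, at means of 35.04 and 5.04 TPM against 826.9 and 578.2 TPM in bulk RNA. The blood list had 4 of 13 genes in the processing table (Ptprc, Itga2b, Alas2 and Cd68), summing to 6.53 to 15.4 TPM, and 5 of 13 in the input table (S100a8 and S100a9 in place of Ptprc), summing to 83.1 and 92.9 TPM in bulk RNA, 90.2 to 237.4 in 100-cell pools, 21.9 to 237.1 in 10-cell pools and 0 to 321.5 in single cells. These sums run over different genes and are not comparable between the tables. Ptprc, the pan-leukocyte gene, was at 0 to 0.689 TPM in the processing libraries and is not analysed here in the input series. The part of these transcripts in the values below was not tested.

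Trp53 and all 7 target genes had higher levels in the bulk RNA of the input series than in the processing libraries, and Cdkn2a and Cdkn2b were lower. The tables were normalized separately and the experiments were made apart, so that a difference between cultures, RNA preparations or tables cannot be told apart. In bulk samples, fewer cells with a transcript and less of it per cell cannot be told apart either. Here and below a gene counts as at least 2-fold apart where its log2(TPM + 1) means differ by 1 or more, which hides changes of genes near 0. Of the 10 genes, 7 were at least 2-fold higher in bulk RNA, 2 were at least 2-fold lower and 1, Phlda3, was just under that size. Over all 12889 shared genes, 8.64% were at least 2-fold higher and 11.4% at least 2-fold lower, and the median log2 difference was -0.05. Since the genes were chosen by this difference, nothing is read from their number.

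**Figure D1:**
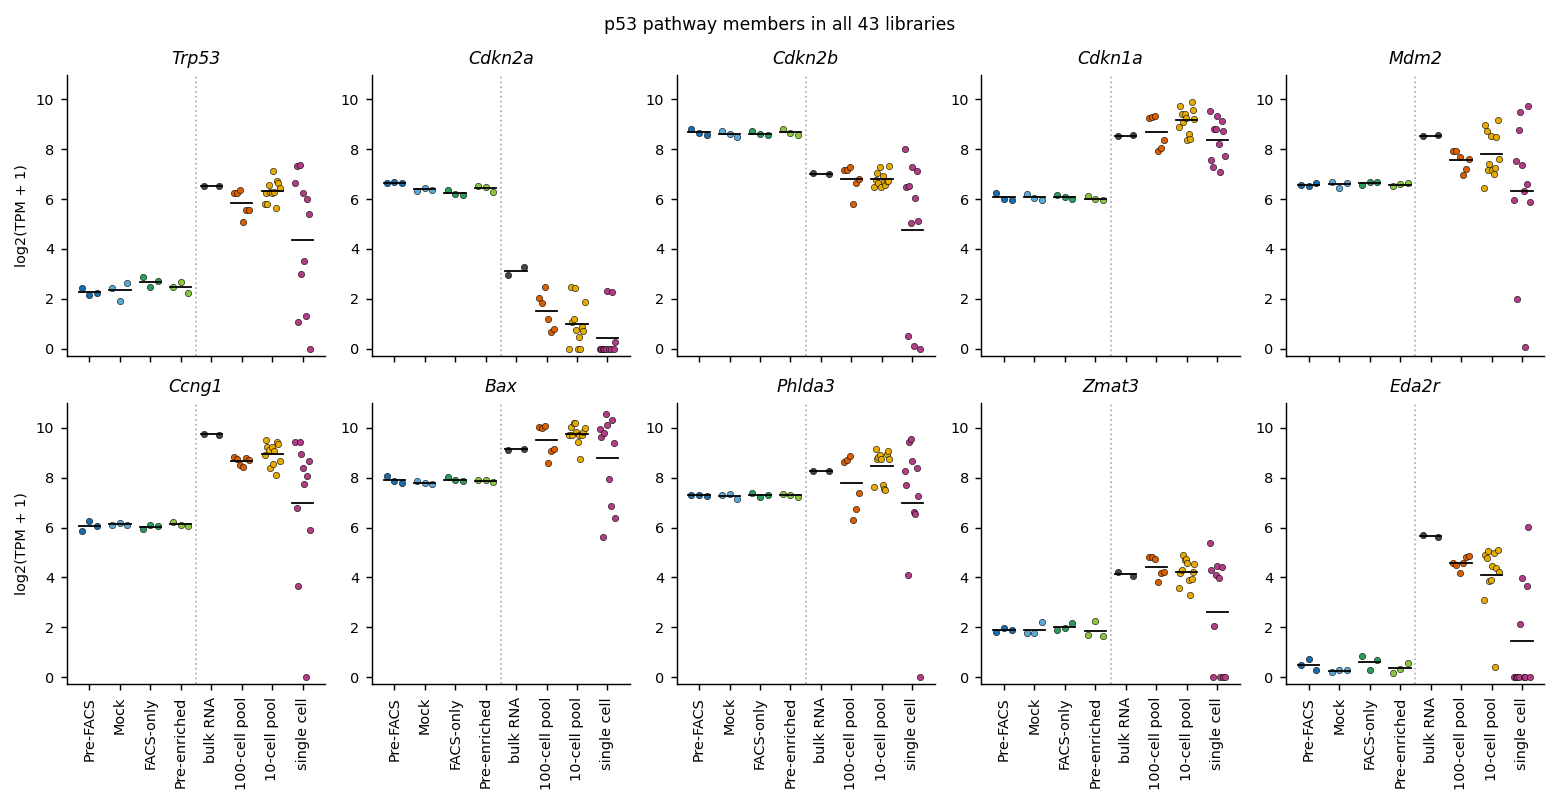
Level of each of the 10 genes as log2(TPM + 1), with 1 point per library and a black bar at the group mean; the dotted line separates the 12 processing libraries (left) from the 31 libraries of the input series (right). Trp53 stood at 2.8 to 6.22 TPM on the left and at 91.2 and 89.998 TPM in bulk RNA, while Cdkn2a stood at 71.0 to 100.8 TPM on the left and at 6.82 and 8.68 TPM in bulk RNA.

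Trp53 was at 4.33, 3.41 and 3.71 TPM in the Pre-FACS libraries, at 4.45, 2.80 and 5.13 in Mock, at 6.22, 4.47 and 5.50 in FACS-only and at 4.57, 5.41 and 3.63 in Pre-enriched. In bulk RNA it was at 91.2 and 89.998 TPM. Every bulk RNA value was thus far above every processing value, and the ratio of the means was 20.3, a log2 difference of 4.09. The 18 pools had Trp53 at 32.8 to 138.0 TPM, so the high level was shared by all sorted pools of the input series, also without the pools that stood apart.

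Cdkn2a, whose Arf product acts on Mdm2, went the other way. It was at 99.8, 100.8 and 99.98 TPM in Pre-FACS, at 79.5, 85.8 and 82.4 in Mock, at 80.4, 73.3 and 71.0 in FACS-only and at 90.5, 89.7 and 77.5 in Pre-enriched, against 6.82 and 8.68 TPM in bulk RNA. The mean of the processing libraries was 11.1 times that of bulk RNA, a log2 difference of -3.31. No pool exceeded 4.57 TPM. Cdkn2b, its neighbour, was at 363.6 to 447.8 TPM in the processing libraries and at 131.8 and 126.4 TPM in bulk RNA, a log2 difference of -1.63. Among the other genes near this locus Mtap, which encodes an enzyme of methionine salvage, had a log2 difference of -0.84 and Focad of -0.46. None of the 6 measured neighbours on chromosome 4 was 2-fold apart on the log2(TPM + 1) scale. One of them, Dmrta1, was at a mean of only 0.138 TPM in the processing libraries and 0.507 TPM in bulk RNA, a ratio of 3.67.

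Mdm2, the p53 antagonist, was at 84.9 to 103.2 TPM in the processing libraries and at 365.7 and 381.4 TPM in bulk RNA, a log2 difference of 1.95. Cdkn1a was at 60.6 to 75.1 TPM and at 364.9 and 379.4 TPM, a difference of 2.48. Ccng1 was at 56.9 to 76.3 TPM against 871.8 and 847.7 TPM, a difference of 3.66, and was the most abundant of the 7 targets in bulk RNA. Bax was at 214.3 to 268.8 TPM against 557.95 and 575.02 TPM, a smaller difference of 1.27. Phlda3 was at 139.6 to 167.3 TPM against 308.8 and 307.2 TPM, a difference of 0.98.

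Zmat3 and Eda2r were nearly silent in the processing libraries. Zmat3 was at 2.14 to 3.79 TPM there and at 17.5 and 15.8 TPM in bulk RNA, a log2 difference of 2.22. Eda2r was at 0.111 to 0.785 TPM and at 51.4 and 48.5 TPM, a difference of 5.25 on the log2(TPM + 1) scale, which understates the change of a gene at so low a level. With a pseudocount of 0.1 the difference was 6.93.

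**Figure D2:**
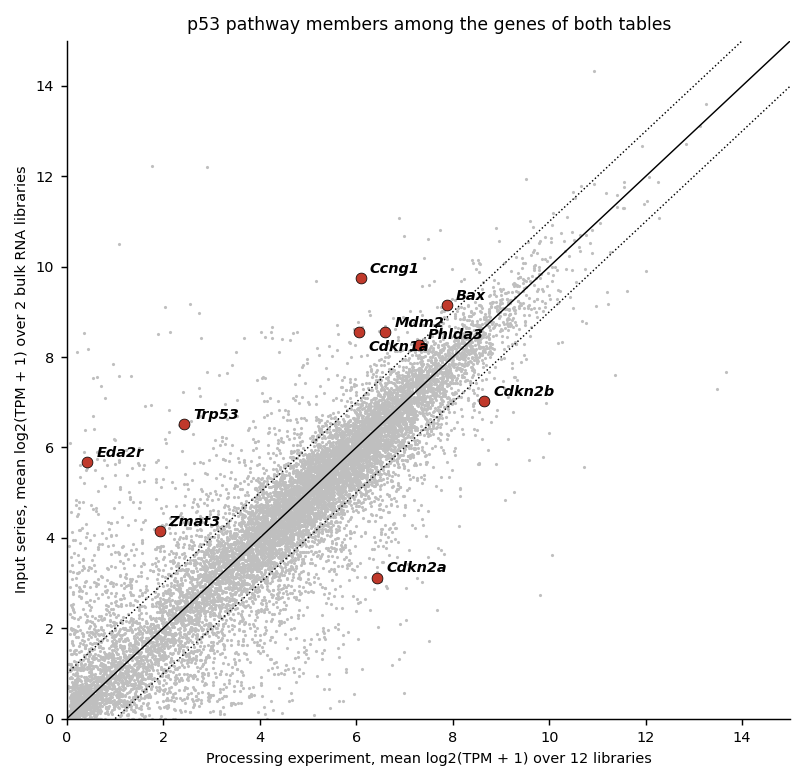
Mean log2(TPM + 1) of each gene of both tables in the 12 processing libraries (x axis) and in the 2 bulk RNA libraries (y axis), with the 10 genes in red, the line of equal levels solid and a difference of 1 on this scale dotted. Trp53 and the 7 targets lie above the solid line and Cdkn2a and Cdkn2b below it, with Phlda3 at 0.98 just inside the dotted line.

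A wider list of 42 further p53 targets, written with earlier results known, had 40 genes in both tables. Of these 18 were at least 2-fold higher in bulk RNA, 1 was at least 2-fold lower and 21 lay between, and their median log2 difference was 0.77 against -0.05 over all shared genes. The largest differences belonged to Sfn, which encodes the cell cycle inhibitor 14-3-3 sigma, at 1.44 to 3.66 TPM in the processing libraries and 122.1 and 121.4 TPM in bulk RNA, and to Sulf2, a sulfatase of heparan sulfate, at 0.158 to 0.804 TPM and 45.8 and 45.5 TPM. The one gene at least 2-fold lower in bulk RNA, Cd82, a tetraspanin, was at 138.5 to 164.7 TPM and 46.2 and 49.0 TPM. Some of the 21 genes between were also lower in bulk RNA, by less than 2-fold on this scale.

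Other lists were described in the same way, beside 8.64% of all shared genes at least 2-fold higher and 11.4% at least 2-fold lower. A smaller difference than that of the 10 genes is no result, since those were chosen by it. Of 15 regulators and relatives, 1 was at least 2-fold higher in bulk RNA (Huwe1, a ubiquitin ligase, log2 difference 1.48) and 1 at least 2-fold lower (Trim24, another ubiquitin ligase of p53, -1.08), with a median of -0.10. Of 18 CDK inhibitors and RB pathway genes, 2 were higher, 2 were lower and the median was -0.02. Within it the CDK inhibitor Cdkn1c had a log2 difference of 1.97 and the CDK inhibitor Cdkn1b one of -1.93. Of 10 genes near Trp53, none was 2-fold higher on the log2(TPM + 1) scale and 2, Chd3 and Shbg, were lower (-1.59 and -1.28). Efnb3, near 0, had a ratio of 2.06 from a mean of 0.312 to 0.642 TPM, and Wrap53, which starts beside Trp53, was at 21.7 to 32.0 TPM and at 26.4 and 23.4 TPM.

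The sorted pools mostly had levels on the side of bulk RNA. For 5 of the 10 genes (Trp53, Cdkn1a, Ccng1, Bax and Zmat3) every one of the 18 pools and 2 bulk RNA libraries was above every processing library, which held for 5.9% of all shared genes. For Cdkn2a and Cdkn2b every one was below, which held for 21.5% of all shared genes. These counts use the same difference by which the genes were chosen. Mdm2, Phlda3 and Eda2r were not fully apart. Mdm2 overlapped through 10-cell pool 1 at 85.6 TPM and Eda2r through 10-cell pool 9 at 0.321 TPM. Phlda3 was at 77.5 and 105.3 TPM in 100-cell pools 4 and 5, below every processing library, of which the lowest was at 139.6 TPM.

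**Figure D3:**
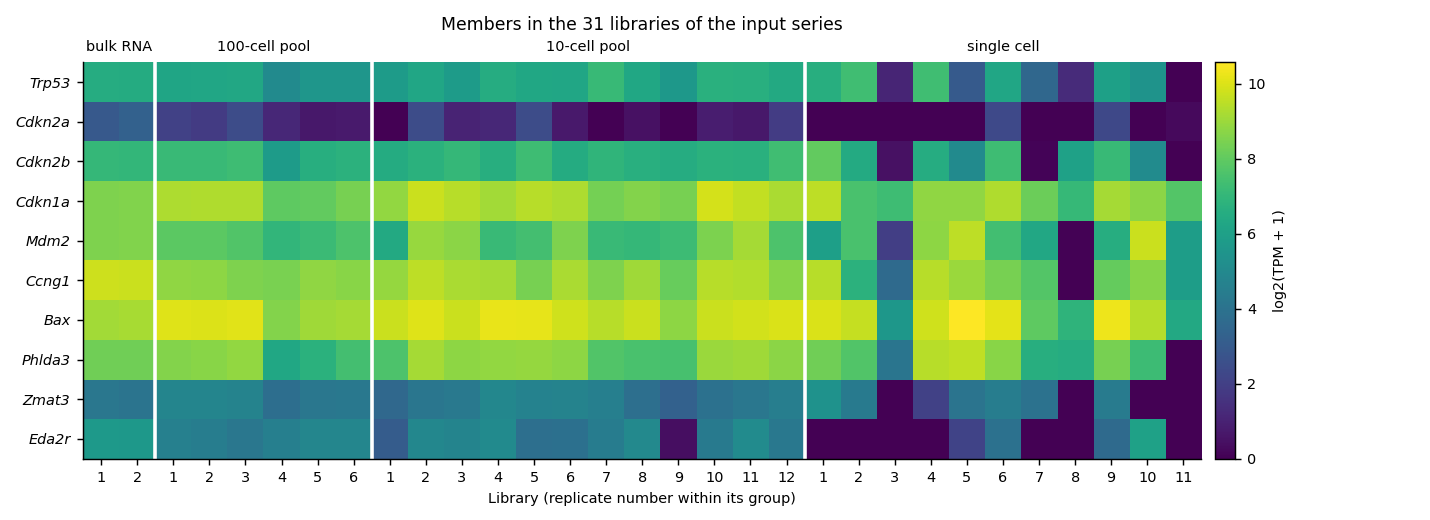
Level of the 10 genes as log2(TPM + 1) (colour) in each of the 31 libraries of the input series (columns, numbered by replicate within their group). Cdkn2a is dark throughout, Cdkn1a and Bax are high in every pool, and the single cells other than 6 and 9 have up to several of the 10 genes at 0.

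Against the pools of 10 cells, the pools of 100 cells had none of the 10 genes called by limma at an adjusted p under 0.05, where 0.00831% of all 12029 genes tested, 1 gene, passed. At an unadjusted p under 0.05 there was 1 of the 10, Trp53, where 6.17% of all genes were under it. Trp53 was at 73.8, 75.4, 80.3, 32.8, 46.3 and 46.4 TPM in the 100-cell pools, and its 12 pools of 10 cells ranged from 48.4 through a median of 77.3 to 138.0 TPM. The difference was -0.47 in log2 (SE 0.227, limma adjusted p = 0.796). The log2 differences of all 10 genes lay between -0.70 and 0.51, with SEs of 0.182 to 0.503. Leaving out the libraries labelled 10-cell pools 5 and 12, again no member was called.

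The comparison turned on which 100-cell pools were used. With pools 1 to 3 none of the 10 genes was called. With pools 4 to 6 there were 4, all lower than in the pools of 10 cells: Phlda3 (log2 difference -1.66, adjusted p = 0.00381 in limma), Cdkn1a (-1.03, adjusted p = 0.0121), Bax (-0.82, adjusted p = 0.0137) and Trp53 (-0.91, adjusted p = 0.0215). In that fit 16.7% of all 11829 genes tested, 1971 genes, passed, and 12.2% passed as lower. Pools 4 to 6 were set apart by these same expression values, so the p-values only describe the division and nothing is read from the 4 calls. Cdkn1a was at 613.2, 627.1 and 640.4 TPM in pools 1 to 3 and at 244.9, 263.2 and 334.6 TPM in pools 4 to 6. Phlda3 was at 393.6, 413.6 and 468.7 TPM in pools 1 to 3 and at 77.5, 105.3 and 168.5 TPM in pools 4 to 6. Ccng1 and Eda2r did not part in this way, with Ccng1 at 449.2, 431.2 and 368.6 TPM against 344.4, 445.2 and 418.7 TPM. The labels give no reason for the division, and the part of depth or RNA quality in it was not tested.

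Among the 12 pools of 10 cells the targets also varied unequally. Phlda3 was at 195.8, 209.4, 186.3 and 181.1 TPM in pools 1, 7, 8 and 9 and at 426.7 to 568.1 TPM in the other 8. The same 4 pools had the lowest values of Cdkn1a, at 468.4, 329.8, 385.9 and 341.6 TPM against 544.1 to 941.0 TPM. Pools 1, 7, 8 and 9 also listed the fewest genes at 1 TPM or more, 9149, 9470, 9905 and 9624 against 10027 to 11498 in the other 8. The part of this in their levels was not tested. Mdm2 ranged from 85.6 to 569.4 TPM. Of the 10 genes Cdkn2b varied least, with a coefficient of variation of 0.126 over the 10 pools other than 5 and 12, where Mdm2 had 0.617. Cdkn2a was at 0 in pools 1, 7 and 9 and reached 4.48 TPM in pool 2.

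Over the 18 pools, as a description across libraries that share their sorting and preparation, Cdkn1a and Phlda3 had Pearson's r = 0.952 on the log2(TPM + 1) scale. Without the libraries labelled 10-cell pools 5 and 12 it was 0.952, and over the remaining 10 pools of 10 cells alone it was 0.913. Among those 10, the pools lowest in both genes were also the ones that listed the fewest genes. The 21 pairs among the 7 targets had r between 0.0904 and 0.952, with a median of 0.515, where the pairs of all 8438 genes with a mean of at least 5 TPM in the pools had a median of 0.126 and a 5th to 95th percentile range of -0.655 to 0.749, within which the targets' median lies. Trp53 itself had r = 0.558 with Cdkn1a over the 18 pools and 0.118 over the 10 pools of 10 cells. The 3 genes most like Cdkn1a over the 18 pools, among these 8438, were Phlda3, Pold2 (0.948) and Stub1 (0.947). Those most like Trp53 were Cnn2 (0.876), Asl (0.859) and Dgcr6 (0.854). Those most like Cdkn2a were Thap11 (0.901), Med26 (0.892) and Llgl1 (0.887). The Cdkn1a search thus returned another p53 target, with Pold2 and Stub1, which are on none of the lists, at nearly the same r. The Trp53 and Cdkn2a searches returned none of the listed genes.

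In the single cells Cdkn1a and Bax were the only 2 of the 10 genes listed at 1 TPM or more in all 11 cells. Cdkn1a ranged from 136.4 to 741.3 TPM, with a median of 425.8. Trp53 reached 1 TPM in 10 of 11 cells, and its values spread from 0 through 1.12 and 1.44 TPM to 159.1 and 162.2 TPM. Mdm2, Ccng1 and Phlda3 also reached 1 TPM in 10 of 11 cells, Cdkn2b in 8, Zmat3 in 7, Eda2r in 4 and Cdkn2a in 2. In all, 83 of 110 values (75.5%) were at 1 TPM or more, and 63 of 90 (70.0%) without the libraries labelled single cell 6 and 9. Of the 110 values 87 were above 0 and 76 were at 5 TPM or more.

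Cdkn2a rested wholly on those 2 libraries. It was at 3.98 TPM in the library labelled single cell 6 and at 3.87 TPM in the one labelled single cell 9, was listed at 0 in 8 cells and was at 0.192 TPM in the remaining cell. Without these libraries 0 of 9 cells reached 1 TPM. In a low-input library a gene listed at 0 can be a transcript that was not captured, and with no counts in the files no limit can be set on it. Eda2r lies on the X chromosome, and of the 100 X-linked genes at or above its bulk RNA level, single cells 1 to 4 each had all 100 listed at 0, against 0 to 34 in the other 7 cells. Its zeros in those 4 cells thus say nothing of Eda2r itself. In the other 7 cells it was at 3.42, 14.6, 0, 0, 11.5, 64.9 and 0 TPM.

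The cells with the fewest detected genes had the fewest members. Single cells 8 and 11, with 3919 and 4106 genes at 1 TPM or more, had 5 and 4 of the 10 members, and single cell 5, with 6744, had 9. Above the lowest cells the order was loose: single cell 10, with 5361 genes, had 8 members, as had single cell 1 with 8598. In single cells 1 to 4 Eda2r could not add to the count. Single cell 10 had Mdm2 at 846.6 TPM and Eda2r at 64.9 TPM, both the highest of all cells, with Cdkn1a at 425.8 TPM. Single cell 5 had Bax at 1522 TPM and Phlda3 at 757.8 TPM, the highest of all cells, with Trp53 at 7.05 TPM, and single cells 2 and 4 had the highest Trp53 with Phlda3 at 206.4 and 698.3 TPM. Spread over the 9 cells other than 6 and 9 exceeded that of the pools: the coefficient of variation of Phlda3 was 1.09 in cells and 0.427 in the 10 pools, and that of Cdkn1a 0.580 and 0.364. The listed genes held unequal parts of the full TPM total: 54.2% in single cell 7, 59.1% in 10, 65.3% in 5 and 96.6% in 1. The part of this in the ranks and spread of the cells was not tested.

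The 4 processing conditions were compared by a test as well, since the rule that picked the genes used the levels of the 2 bulk sets and not the differences between conditions. Cdkn2a was the only member that passed a test: its level was lower in the sorted FACS-only libraries, at -0.42 in log2 from Pre-FACS (SE 0.072, limma adjusted p = 0.0368, n = 3 in each group). Its means were 100.2 ± 0.564 TPM in Pre-FACS (SD, n = 3), 82.6 ± 3.17 after Mock, 74.9 ± 4.88 after FACS-only and 85.9 ± 7.31 after Pre-enriched handling. All 9 libraries handled in any way were below all 3 Pre-FACS libraries, a separation whose share over all genes was not counted. The cyclin gene Ccnd3, which did not pass, had it too. Its lowest Pre-FACS value was 118.2 TPM and its highest value in the other conditions 114.4 TPM. Of the other targets Plk2, a polo-like kinase, was the only gene of the wider lists that passed, in FACS-only against Pre-FACS and upward.

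The call is a narrow one. In FACS-only against Pre-FACS 1 of 9 members tested was called, where 0.123% of all 12159 genes, 15 genes, passed. Eda2r did not pass the filter on low values and was not tested. The call on Cdkn2a was lost when FACS-only replicate 2 (adjusted p = 0.224), FACS-only replicate 3 (0.170), Pre-FACS replicate 1 (0.0998), Pre-FACS replicate 2 (0.169), Pre-FACS replicate 3 (0.0773) or Mock replicate 1 (0.0509) was left out, and in limma without a trend of the variance with the mean (adjusted p = 0.187). Over all fits that left out 1 library its log2 difference lay between -0.47 and -0.38.

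**Figure D4:**
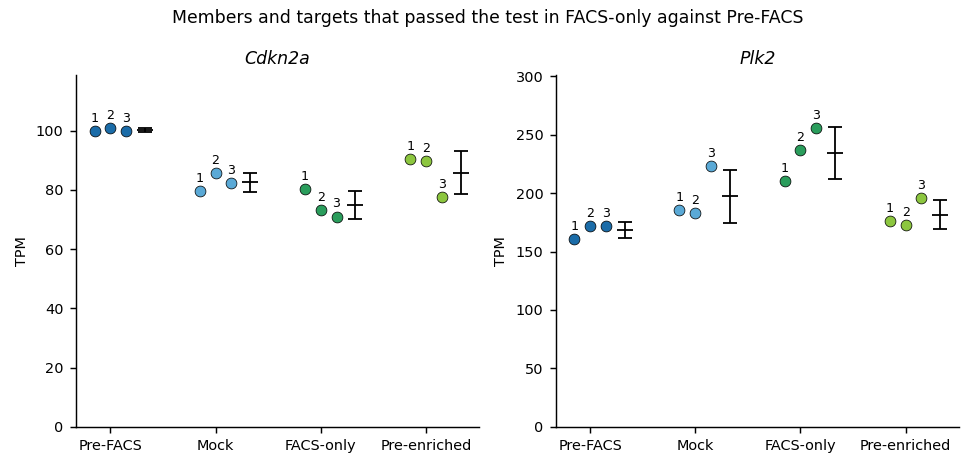
TPM of Cdkn2a (left) and Plk2 (right) in each library of the 4 conditions, numbered by replicate, with the mean and SD of the 3 libraries in black beside them. For Cdkn2a the 3 FACS-only libraries, at 71.0 to 80.4 TPM, sit below the 3 Pre-FACS libraries at 99.8 to 100.8 TPM, and for Plk2 the FACS-only libraries, at 210.7 to 255.6 TPM, sit above the Pre-FACS libraries at 160.7 to 172.3 TPM.

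Against Pre-FACS, Cdkn2a stood at -0.28 on the log2 scale in Mock (SE 0.072, limma adjusted p = 0.844) and at -0.22 in Pre-enriched (SE 0.072, limma adjusted p = 0.336). Neither passed, and the difference of either from FACS-only was not tested. No member was called in Mock against Pre-FACS, where 0.00822% of genes passed, or in Pre-enriched against Pre-FACS, where 0.0493% passed. At an unadjusted p under 0.05 there was 1 member in each, Cdkn2a. In the test for any difference among the 4 conditions none of the 9 members passed, where 0.107% of genes, 13, did. Cdkn2a had an adjusted p of 0.179 there and was the 1 member with an unadjusted p under 0.05, where 7.56% of all genes were under it. With the replicate number as a block, an alternative given below, Cdkn2a did pass this test. No gene of the wider lists was among the 13.

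Cdkn2b, next to Cdkn2a, did not pass. It was at 447.8, 401.3 and 380.7 TPM in Pre-FACS, at 428.2, 390.4 and 363.6 in Mock, at 421.0, 387.9 and 374.7 in FACS-only and at 445.9, 404.4 and 377.4 in Pre-enriched. The groups overlapped, and the FACS-only value was -0.05 from Pre-FACS in log2 (SE 0.0764, limma adjusted p = 0.936).

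Trp53 had the largest estimate after Cdkn2a, 0.40 in FACS-only against Pre-FACS (SE 0.203, limma adjusted p = 0.743), at a level of 2.8 to 6.22 TPM. Its 3 Pre-FACS and 3 FACS-only values did not overlap, and how many of all genes were apart in this way was not counted. None of the 6 target members tested passed against Pre-FACS. Next to its error the largest of their differences was that of Bax in Mock, -0.12 (SE 0.0675, limma adjusted p = 0.997). Cdkn1a, the CDK inhibitor p21, was at 66.2 ± 7.80 TPM in Pre-FACS (SD, n = 3), 66.5 ± 6.24 for Mock, 66.6 ± 3.84 for FACS-only and 64.0 ± 3.49 for Pre-enriched, and its difference in FACS-only was 0.01 (SE 0.0901). Mdm2 was at 95.02 ± 4.51, 95.3 ± 9.10, 99.7 ± 4.81 and 94.7 ± 3.32 TPM in the same order. Apart from Cdkn2a, the members' log2 differences lay between -0.12 and 0.07 for Mock, between -0.05 and 0.40 for FACS-only and between -0.04 and 0.19 for Pre-enriched, with SEs of 0.0649 to 0.21. A difference of several such errors could be missed, since that of Cdkn2a in Mock, at -0.28 with an SE of 0.072, did not pass.

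**Figure D5:**
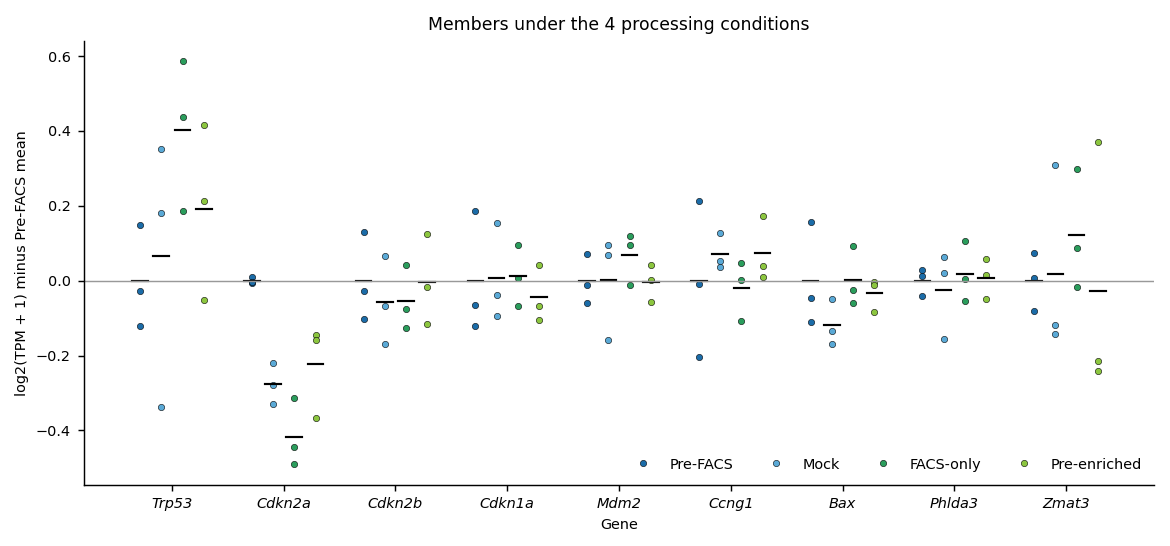
Level of the 9 tested genes in the 12 processing libraries as the log2(TPM + 1) value minus the gene's Pre-FACS mean, with 1 point per library, coloured by condition, and a black bar at each mean. Cdkn2a is the gene whose Mock, FACS-only and Pre-enriched points all lie below its Pre-FACS points, with means of -0.28, -0.42 and -0.22.

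In the wider list of targets 1 of 38 genes tested was called in FACS-only against Pre-FACS and none in Mock or Pre-enriched, with 3, 2 and 4 at an unadjusted p under 0.05, where 6.96%, 4.53% and 9.18% of all genes tested were under it, so these counts lie near the background. Plk2 was at 160.7, 172.2 and 172.3 TPM in Pre-FACS, at 185.6, 183.2 and 223.4 in Mock, at 210.7, 236.9 and 255.6 in FACS-only and at 176.3, 172.5 and 195.9 in Pre-enriched. Every FACS-only library was above every Pre-FACS library, a separation that was not counted over all genes. The difference was 0.47 in log2 (SE 0.0829, limma adjusted p = 0.0368). This call was also lost when FACS-only replicate 2 (adjusted p = 0.224) or 3 (0.186), Pre-FACS replicate 1 (0.125), 2 (0.166) or 3 (0.0674), Mock replicate 1 (0.0509) or Pre-enriched replicate 1 (0.0535) was left out, without the trend (0.279) and without the filter (0.0586). Its relative Plk3 had the second lowest p of the list, at 0.75 in log2 for FACS-only against Pre-FACS (SE 0.174, limma adjusted p = 0.16), at 38.8, 43.002 and 53.6 TPM in Pre-FACS and 64.3, 77.1 and 88.9 TPM in FACS-only.

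Among the regulators of p53, the CDK inhibitors and RB pathway genes and the neighbours of both loci, none passed in any of these comparisons. In FACS-only against Pre-FACS, 0 of 15 regulators, 2 of 18 CDK inhibitors and RB pathway genes, 0 of 5 genes near Cdkn2a and 0 of 9 genes near Trp53 had an unadjusted p under 0.05. In Pre-enriched against Pre-FACS the same lists had 1 of 15, 4 of 18, 2 of 5 and 0 of 9, and in Mock 0 of 15, 2 of 18, 0 of 5 and 0 of 9. Of all genes tested, 6.96% were under 0.05 in FACS-only, 9.18% in Pre-enriched and 4.53% in Mock, and no list was tested as a set. By the lowest p among the 4 conditions the regulators were led by Ep300, an acetyltransferase (adjusted p = 0.616 in limma), and Usp7, a deubiquitinase (0.677), and the RB pathway genes by the CDK inhibitor Cdkn2d (0.635) and the cyclin Ccnd3 (0.639). Near Cdkn2a the lowest were Mtap (0.665) and Hacd4 (0.744), and near Trp53 Kdm6b (0.856) and Sat2 (0.867).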

How the data were processed

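The deposited values are TPM in 2 tables, 1 for the 12 processing libraries (13845 genes) and 1 for the 31 libraries of the input series (13817 genes). Per the labels and methods, the authors made libraries with SMART-Seq v4, aligned reads with STAR to mm10, counted genes with featureCounts and applied upper quartile normalization. TPM hold no depth, so count tests were not used, and no test was run across the tables. The 10 genes, the wider lists and the tests were chosen with earlier results of these data known. Samples were grouped by their titles, and 0 columns of values were left unused.

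Tests used limma 3.58.1 in R 4.3.3 on log2(TPM + 1), over genes at 1 TPM or more in at least 3 libraries, with a variance trend, all libraries of the experiment in 1 fit and Benjamini-Hochberg adjustment over all genes tested (threshold 0.05). Scripts were tested on simulated data. Other steps used Python 3.11.15. Named are the 10 genes, every called gene of a wider list, the 2 genes per list of lowest p among the conditions and the 2 of largest difference between the bulk sets, and the 3 most correlated with Trp53, Cdkn2a and Cdkn1a over the pools. Cd82, Wrap53, Dmrta1, Efnb3 and the epithelial and blood markers, and the libraries singled out, were named after their values were seen. Alternatives were another pseudocount (0.1), filters, normalizations, no trend, the replicate number as a block, another threshold (0.1) and leaving out libraries. A further engineered allele of the line is not reported here.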

Additional observations from a re-analysis of the deposited data

How the results depend on the processing

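Of the counts of called members, those in Mock and in Pre-enriched against Pre-FACS stayed at 0 under every alternative run. In FACS-only against Pre-FACS the count of 1 became 0 in limma without trend and ranged from 0 to 1 when each library was left out. Among the 4 conditions it was 0 throughout except with the replicate number as a block, where it was 1: Cdkn2a then had an adjusted p of 0.0366, and the genes called rose from 13 to 61, from 1 to 7 in Mock, from 15 to 77 in FACS-only and from 6 to 37 in Pre-enriched. The labels do not say what a number shares. Libraries of the same number deviated from their group means with a correlation of -0.0422 to 0.229 (median 0.0693), over 0.1 in 2 of 18 pairs. Pairs of other numbers had -0.16 to 0.0836 (median -0.03), over 0.1 in 0 of 36. For 9 of 12 libraries the best correlation was with one of their own number. Libraries of 1 number thus shared a weak deviation, which the fits without a block leave in their error. Since no source names what is shared, the block was kept as an alternative only. In 100-cell against 10-cell pools the block called 0 genes, and same-numbered pools correlated at -0.636 to 0.327.

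Genes called among the 4 conditions numbered 7 without a filter, 1 without the trend and 1 to 17 when a library was left out, and in FACS-only against Pre-FACS 0 without the trend, 31 at a threshold of 0.1 and 5 to 24 when a library was left out. In Mock against Pre-FACS the count was 0 without the trend and 0 to 1 when a library was left out, and in Pre-enriched 13 at a threshold of 0.1 and 1 to 7 when a library was left out. In 100-cell against 10-cell pools 3 genes were called without a filter, 2 with quantile normalization, 2 with 100-cell pools 1 to 3 only and 0 with rescaled TPM or without the trend. In 100-cell against 10-cell pools the count of members was 4 with 100-cell pools 4 to 6 only, with 1971 genes called (531 higher, 1440 lower), and 0 otherwise. The genes called numbered 47 without 10-cell pools 5 and 12, an alternative chosen after seeing the data, as was leaving out single cells 6 and 9. Single-cell values at 1 TPM or more were 53 of 70 without single cells 1 to 4, where fewer cells remain. Members at least 2-fold apart between the bulk sets kept their direction under every alternative, and Phlda3 moved between 0.98 and 1.04.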

Other observations

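The epithelial markers gave a further contrast between the 2 bulk sets. Krt18, Krt8 and Krt7, keratins of simple epithelia, had log2 differences of -0.02, -0.14 and -0.09 between bulk RNA and the processing libraries, the related keratin Krt19 one of 0.76, and Cdh1, which encodes E-cadherin, one of -0.11. Epcam, an epithelial adhesion molecule, was at 32.1 to 38.9 TPM in the processing libraries and at 811.4 and 842.4 TPM in bulk RNA, and Cldn7, a tight junction claudin, at 2.78 to 7.65 TPM and at 586.3 and 570.03 TPM. In the pools Cdh1 was at 45.4 to 262.6 TPM, below both bulk sets, while Epcam was at 439.9 to 1311 TPM.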
